A study of Mus musculus with 6 samples.

Results

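The genes described here are *Ppp1r3g* and the other genes of the family that targets protein phosphatase 1 (PP1) to glycogen (*Ppp1r3a*, *Ppp1r3b*, *Ppp1r3c*, *Ppp1r3d*, *Ppp1r3e* and *Ppp1r3f*), together with *Gys1*, *Gbe1* and *Pygl*, which encode a glycogen synthase, the glycogen branching enzyme and a glycogen phosphorylase. They were taken by gene symbol, 10 genes of the 55401 counted in each library, and 7 of the 10 are targeting subunits. *Ppp1r3g* was selected on its counts in the Atrx-cKO and control libraries, which differed, so that difference is described without a test. The other 9 were chosen by function.

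RNA was collected from whole tibias of male mice at 8 weeks of age, with 3 Atrx-cKO libraries (genotype Osterix-Cre; Atrxf/y) and 3 control libraries (Atrxf/y), so all mice carried the floxed *Atrx* allele and only the Atrx-cKO mice carried the Cre. The Osterix-Cre transgene is of the Tet-off kind and acts in preosteoblasts and their descendants, and doxycycline held it off until 3 weeks of age. No library came from mice with Osterix-Cre and an intact *Atrx*, so effects of the transgene and of the deletion cannot be told apart. Marrow and attached muscle, most of which lies outside that lineage, were in the same RNA, and in such bulk RNA fewer cells of a type and less RNA per cell cannot be told apart.

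Glycogen is a branched store of glucose that muscle, liver and many other cells build and break down. Glycogen synthase lengthens its chains and is active when dephosphorylated, whereas glycogen phosphorylase shortens them and is active when phosphorylated. PP1 has no affinity for glycogen by itself, and a PPP1R3 subunit brings its catalytic subunit to the particle, where it activates the synthase and switches off the phosphorylase. The subunits differ in tissue: PPP1R3A is the form of striated muscle, PPP1R3B is abundant in liver, and PPP1R3C, also called PTG, is broadly expressed. Osteoblast lineage cells are also known to hold glycogen.

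The libraries held 50977777 to 70571655 counts on genes, and 3 counts, used here as the lower limit of detection, correspond to 0.0452 to 0.0619 CPM (counts per 1000000, with library sizes scaled by the trimmed mean of M values, TMM). *Atrx* itself was at 163 ± 9.79 CPM (SD, n = 3) in Atrx-cKO and 169 ± 7.23 CPM (SD, n = 3) in control, with overlapping groups, so gene-level *Atrx* counts did not check the labels. Skeletal muscle RNA differed strongly between libraries. The 14 fast-fiber markers summed to 3097, 1643 and 902 CPM in the Atrx-cKO libraries and to 1062, 1167 and 15112 CPM in the control libraries, so control replicate 3 stood apart. *Myh4*, the myosin of the fastest fibers, made up the largest part of that sum, at 4546 CPM. Not all markers followed. *Myh1* and *Myh2*, the myosins of the other fast fiber types, were at 51.4 and 10.5 CPM in control replicate 3, below the 136 and 24.5 CPM of control replicate 1 and the 110 and 21.6 CPM of control replicate 2. Myoglobin (*Mb*, a shared marker) was likewise at 29.7 CPM there, against 59.6 and 45.8 CPM, and every other fast-fiber or shared marker was highest in control replicate 3. The muscle score is thus a mean over genes that did not all move alike. The slow-fiber sum ran from 214 to 269 CPM and was mostly *Atp2a2*, at 201 to 250 CPM, whereas *Myoz2* of the same list ran from 0.254 to 3.02 CPM. All 30 muscle markers (fast, slow and shared) were above the detection limit in every library, and the mean of their log2(CPM + 0.5) served as the muscle score, which was 5.60, 4.73 and 4.03 in Atrx-cKO and 4.55, 4.53 and 6.70 in control. The 8 osteoblast markers were all detected and summed to 111610 to 187580 CPM, as the labelled tissue would hold. The 4 liver markers summed to at most 0.229 CPM. Results that rest on control replicate 3 are given below with and without it.

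The promoters of 4 members are shown because the sections that follow turn on them: *Ppp1r3g*, which differed between genotypes, *Ppp1r3a* and *Ppp1r3c*, which followed the muscle score over all 6 libraries, and *Gys1*, the synthase on which the subunits act. RefSeq (GRCm38.p6) promoters, 250 bases before to 50 after the start site, matched 8 of the 10 members by symbol. *Ppp1r3b* and *Ppp1r3e* were not matched. The *Ppp1r3g* window is chr13:35967656-35967955 on the plus strand, that of *Ppp1r3a* is chr6:14755225-14755524 on the minus strand, that of *Ppp1r3c* is chr19:36736555-36736854 on the minus strand and that of *Gys1* is chr7:45434589-45434888 on the plus strand. Each is written 5′ to 3′ on the strand of its gene. Capitals mark the MEF2 box and the E-box CAGCTG, 2 motifs known for muscle genes, which were chosen with the values already known and searched on both strands.
*Ppp1r3g*: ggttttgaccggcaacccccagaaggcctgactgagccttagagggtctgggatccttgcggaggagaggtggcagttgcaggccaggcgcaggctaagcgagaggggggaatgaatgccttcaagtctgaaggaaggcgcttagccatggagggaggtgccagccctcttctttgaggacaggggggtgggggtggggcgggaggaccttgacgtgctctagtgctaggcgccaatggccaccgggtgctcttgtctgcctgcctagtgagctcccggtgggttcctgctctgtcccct
*Ppp1r3a*: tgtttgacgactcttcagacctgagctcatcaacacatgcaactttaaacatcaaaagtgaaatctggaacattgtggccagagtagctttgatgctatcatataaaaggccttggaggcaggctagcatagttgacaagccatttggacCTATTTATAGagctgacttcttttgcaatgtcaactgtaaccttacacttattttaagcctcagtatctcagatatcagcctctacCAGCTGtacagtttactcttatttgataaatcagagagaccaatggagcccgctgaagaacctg
*Ppp1r3c*: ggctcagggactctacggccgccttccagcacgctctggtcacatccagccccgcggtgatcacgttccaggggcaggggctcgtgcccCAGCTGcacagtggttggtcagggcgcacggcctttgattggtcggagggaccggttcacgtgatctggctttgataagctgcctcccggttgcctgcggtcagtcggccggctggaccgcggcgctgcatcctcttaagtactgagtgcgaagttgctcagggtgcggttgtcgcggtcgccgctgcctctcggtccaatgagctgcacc
*Gys1*: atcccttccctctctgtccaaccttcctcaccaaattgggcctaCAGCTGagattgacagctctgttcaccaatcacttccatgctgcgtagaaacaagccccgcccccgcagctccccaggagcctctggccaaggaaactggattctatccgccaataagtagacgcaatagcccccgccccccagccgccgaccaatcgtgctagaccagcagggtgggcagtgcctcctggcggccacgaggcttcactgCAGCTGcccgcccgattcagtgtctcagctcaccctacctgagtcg

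The MEF2 box was found in 1 member, *Ppp1r3a*, 100 bases before its start site, and 0.557% of the 32851 RefSeq promoters hold one. The *Ppp1r3a* window also has CAGCTG 14 bases before the start site, that of *Ppp1r3c* has it at 161 bases before, and that of *Gys1* has it at -206 and 4. CAGCTG stood in 3 of the 8 members, against 16.3% of all promoters. The *Ppp1r3g* window holds neither motif. Its CCAAT box lies 18 bases before the start site and its GC box (GGGCGG) 54 bases before, and these occur in 37.4% and 35.7% of promoters. CpG counts also differed, with 2 CpG in *Ppp1r3a*, 10 in *Ppp1r3g*, 14 in *Gys1* and *Gbe1*, 22 in *Pygl*, 26 in *Ppp1r3c*, 29 in *Ppp1r3f* and 45 in *Ppp1r3d*, where the median over all promoters is 7. Positions are those of the first letter of a match, and a match is only a run of letters in a window.

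*Ppp1r3g* encodes a targeting subunit best known from liver, where it varies with fasting and feeding. It was low in all libraries and higher in every Atrx-cKO library than in any control library. The Atrx-cKO libraries held 39, 32 and 46 counts, or 0.665, 0.564 and 0.778 CPM, and the control libraries held 5, 6 and 0 counts, or 0.0887, 0.0905 and 0 CPM. The lowest Atrx-cKO library was 6.23 times the highest control library. Group means were 0.669 ± 0.107 CPM in Atrx-cKO and 0.0597 ± 0.0517 CPM in control (SD, n = 3 each), a ratio of 11.2. Pooled over libraries these were 117 counts against 11. The 95% Wilson intervals of single libraries, which cover counting error only, ran from 0.400 to 0.796 CPM for the lowest Atrx-cKO library and from 0.0415 to 0.197 CPM for the highest control library, and the count of 0 in control replicate 3 had an upper bound of 0.0792 CPM. They are given for the precision of each level and not as a comparison of the groups.

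These values chose the gene and were not tested, and *Ppp1r3g* passed the filter on low counts only through the Atrx-cKO libraries. The fitted log2 fold change was 3.38 (SE 0.69), and it was 3.32 (SE 0.65) with the muscle score in the fit. It lay between 2.87, without control replicate 3, and 3.78, without control replicate 2. Even in Atrx-cKO the transcript was rare, since only 17.6% of the 20636 tested genes had a lower mean there. Its slope on the muscle score was -0.60 log2 units per unit of score (SE 0.43), given as a description because the control counts are so low. Within Atrx-cKO its level had no order along the score, at 0.665 CPM where the score was 5.60, 0.564 CPM at 4.73 and 0.778 CPM at 4.03. The liver markers summed to 0.0170 to 0.229 CPM in Atrx-cKO and 0.121 to 0.165 CPM in control. Whether the makeup of the tissue has a part in the difference was not tested.

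**Figure D1:**
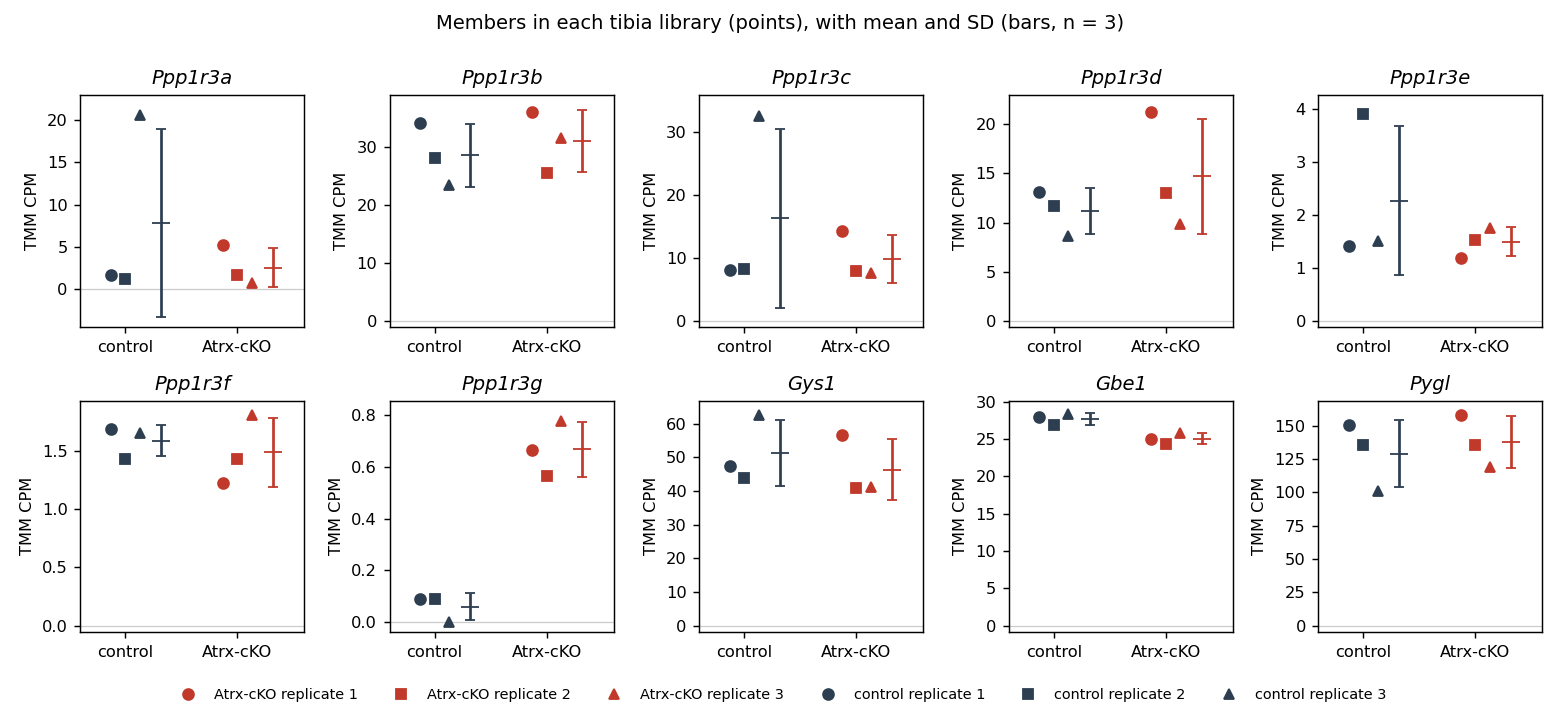
Levels of the 10 members in each tibia library, as TMM-scaled CPM on linear axes that include 0, with the 3 control and 3 Atrx-cKO libraries as points and the mean and SD beside them. *Ppp1r3g* separates at 0.564 to 0.778 CPM against 0 to 0.0905 CPM, *Gbe1* separates by a small margin, and control replicate 3 is far above the rest for *Ppp1r3a* and *Ppp1r3c*.

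*Ppp1r3g* (ENSMUSG00000050423) lies on chromosome 13 at 35958839 to 35970388 of GRCm38, plus strand, with 3 annotated transcripts. Its exons form 2 blocks, at 35958839 to 35958996 and 35967853 to 35970388, so 2536 of its 2694 exonic bases are in the second block. The RefSeq promoter above lies at the second block, and gene-level counts do not tell which start was used. The antisense gene *Gm30127* overlaps its span but shares 0 exonic bases and had 1 count in all libraries together.

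The other members lie elsewhere in GRCm38. *Ppp1r3a* is on chromosome 6 at 14713977 to 14755274, *Ppp1r3b* on chromosome 8 at 35375739 to 35388139 and *Ppp1r3c* on chromosome 19 at 36731731 to 36736653. *Ppp1r3d* lies on chromosome 2 at 178411206 to 178414472 as a single exon, *Ppp1r3e* on chromosome 14 at 54872669 to 54877550 and *Ppp1r3f* on chromosome X at 7557296 to 7574283. *Gys1* lies on chromosome 7 at 45434844 to 45456619, *Gbe1* on chromosome 16 at 70313949 to 70569716 and *Pygl* on chromosome 12 at 70190811 to 70231488. No member shares a chromosome with another.

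The nearest expressed gene, *Lyrm4*, which encodes a protein of mitochondrial iron-sulfur cluster assembly, was also higher in Atrx-cKO. It is on the opposite strand, and 8006 bases separate the annotated ends of the genes. *Lyrm4* was at 17.8, 18.0 and 16.5 CPM in Atrx-cKO and at 4.58, 5.23 and 4.87 CPM in control, with no overlap. The log2 fold change was 1.83 (SE 0.11, edgeR adjusted p = 0.00771), and *Lyrm4* was 1 of the 3 genes called higher among 20636, which is 0.0145%, while 0% were called lower. Its edgeR adjusted p rose to 0.105, 0.143 and 0.0595 when the first or the second Atrx-cKO library or the second control library was left out. In each of these fits 0 genes at all were called, of 21228, 21324 and 21240 tested. The log2 fold change of *Lyrm4* was between 1.78 and 1.88 over all 6 fits that each left out 1 library.

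The other genes within 100 kb did not pass the test. *Cdyl*, a chromodomain protein gene upstream, had a log2 fold change of -0.01 (SE 0.08), and *Rpp40*, an RNase P subunit gene, one of -0.22 (SE 0.21). The lincRNA *Gm48746*, 37449 bases upstream, was at 0.528, 0.370 and 0.220 CPM in Atrx-cKO and at 0.0355, 0.226 and 0.186 CPM in control, so its groups overlapped (log2 fold change 1.30, SE 0.67, edgeR adjusted p = 0.992). The pseudogene *Tmed10-ps* had -0.28 (SE 0.43). The other 5 genes of the window (*Gm48756*, *Gm30127*, *Gm18132*, *Gm48770* and *Gm48765*) were too low to be tested.

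**Figure D2:**
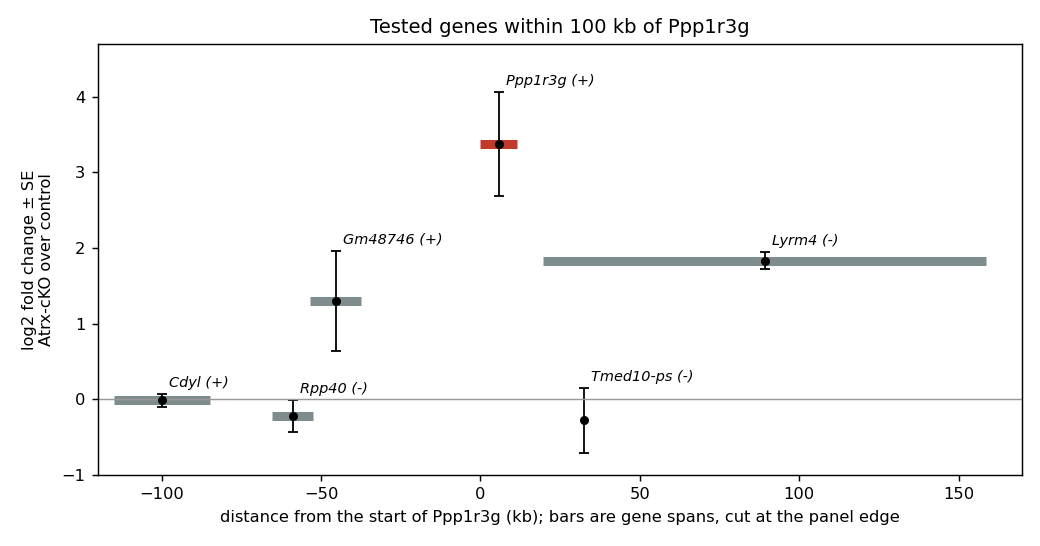
Genotype log2 fold change (y axis, Atrx-cKO over control, with SE) of the tested genes within 100 kb against distance from the start of *Ppp1r3g* in kb (x axis), with strand in brackets and horizontal bars for gene spans. *Ppp1r3g* (3.38) and *Lyrm4* (1.83) are the highest, *Gm48746* (1.30) has a wide error, and *Cdyl* lies at -0.01.

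*Ppp1r3a*, the subunit of striated muscle, had the widest spread of the members apart from *Ppp1r3g*. It was at 5.21, 1.73 and 0.795 CPM in Atrx-cKO and at 1.69, 1.21 and 20.6 CPM in control. Control replicate 3, the library with the highest muscle score, was highest, Atrx-cKO replicate 1, the next in score, was second, and Atrx-cKO replicate 3, with the lowest score, was lowest, a 25.9-fold range. The genotype log2 fold change was -1.61 (SE 1.14, edgeR adjusted p = 0.992). It was 0.84 without control replicate 3 and -0.02 (SE 0.18) with the muscle score in the fit. Its slope on the score was 1.78 (SE 0.10, edgeR adjusted p = 0.00114).

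*Ppp1r3c*, the broadly expressed subunit PTG, gave a similar but shallower picture. It was at 14.3, 7.84 and 7.51 CPM in Atrx-cKO and at 8.02, 8.14 and 32.7 CPM in control, so 4 libraries lay close together and the library of each genotype with the highest muscle score stood above them. The genotype log2 fold change was -0.73 (SE 0.57, edgeR adjusted p = 0.992), 0.29 without control replicate 3 and -0.04 (SE 0.18) with the muscle score. The slope was 0.85 (SE 0.09, edgeR adjusted p = 0.00899).

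*Ppp1r3b*, the subunit abundant in liver, and *Ppp1r3d*, a subunit also called R6, were both well expressed in the absence of liver markers. *Ppp1r3b* was at 36.2, 25.5 and 31.7 CPM in Atrx-cKO and at 34.3, 28.1 and 23.5 CPM in control, with overlapping groups (log2 fold change 0.12, SE 0.17, edgeR adjusted p = 0.992). *Ppp1r3d* was at 21.2, 13.02 and 9.84 CPM in Atrx-cKO and at 13.2, 11.7 and 8.62 CPM in control, also overlapping (0.40, SE 0.28, adjusted p = 0.992). For both, Atrx-cKO replicate 1 was highest and control replicate 3 lowest. The sum of the 10 neutrophil markers had the same extremes, at 13026, 9602 and 9197 CPM in Atrx-cKO and 10973, 9187 and 7416 CPM in control. Not every marker did, since *Camp* was highest in control replicate 1 (859 CPM) and *Mpo* lowest in Atrx-cKO replicate 3 (812 CPM). The part of neutrophils in the levels of *Ppp1r3b* and *Ppp1r3d* was not tested. Neither *Ppp1r3b* nor *Ppp1r3d* passed the test of a slope on the muscle score, with slopes of -0.08 (SE 0.10, edgeR adjusted p = 0.997) and 0.07 (SE 0.18, adjusted p = 0.999).

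*Ppp1r3e* and *Ppp1r3f*, less studied members of the family, were near 1 to 4 CPM. *Ppp1r3e* was at 1.19, 1.53 and 1.74 CPM in Atrx-cKO and at 1.40, 3.91 and 1.51 CPM in control. Control replicate 2 alone was high, and the log2 fold change of -0.61 (SE 0.42, edgeR adjusted p = 0.992) became 0.03 without it. *Ppp1r3f* was at 1.23, 1.43 and 1.81 CPM in Atrx-cKO and at 1.69, 1.43 and 1.65 CPM in control (-0.09, SE 0.24, adjusted p = 0.994). The annotation places 2415 of its exonic bases, 46.9%, in *Gm36995* on the same strand, and 310 in the antisense gene *Flicr* and 266 in *Foxp3* on the other strand, so its counts are uncertain.

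Of the enzymes, *Gys1*, the glycogen synthase of tissues other than liver, was at 56.8, 41.0 and 41.2 CPM in Atrx-cKO and at 47.5, 44.0 and 62.5 CPM in control. The library with the highest muscle score of each genotype was again the highest of its group, and the groups overlapped (log2 fold change -0.15, SE 0.18, edgeR adjusted p = 0.992). The sign of this small difference turned without control replicate 3 (0.02). *Gys1* shares 310 exonic bases, 6.47% of its own, with *Ruvbl2* on the opposite strand.

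*Gbe1*, the branching enzyme, was the steadiest member, at 24.96, 24.3 and 25.8 CPM in Atrx-cKO and at 27.9, 26.8 and 28.4 CPM in control. All Atrx-cKO libraries lay below all control libraries, and the coefficient of variation was 2.98% and 2.90% within the groups. The difference was small, with a log2 fold change of -0.15 (SE 0.08, edgeR adjusted p = 0.992), and remained between -0.18 and -0.13 without each library in turn. It was the 1 member of the 9 other than *Ppp1r3g* with groups that did not overlap, where 8.36% of all tested genes had such groups.

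*Pygl*, the phosphorylase named for liver, was the most abundant member, at 158, 135 and 119 CPM in Atrx-cKO and at 150, 135 and 101 CPM in control. The groups overlapped (log2 fold change 0.10, SE 0.16, edgeR adjusted p = 0.992). As with *Ppp1r3d*, its highest library was Atrx-cKO replicate 1 and its lowest control replicate 3. These were also the extremes of the summed neutrophil markers, and the part of neutrophils was not tested.

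Among the 9 members other than *Ppp1r3g*, 0 passed the genotype test in edgeR (adjusted p under 0.05 together with a fold change past 1 log2 unit), where 0.0145% of all tested genes were called higher and 0% lower. Further, 0 had an unadjusted edgeR p under 0.05, where 3.64% of all tested genes did, and 0 passed in DESeq2, where 0.0975% of genes did. All 9 passed the filter on low counts. With 3 signs upward and 6 downward, their median log2 fold change was -0.15, beside 0.00 over all tested genes, and it was -0.03 with the muscle score in the fit. A p that misses the threshold does not show that the levels were equal. The SE of the difference ran from 0.08 for *Gbe1* to 1.14 for *Ppp1r3a*.

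**Figure D3:**
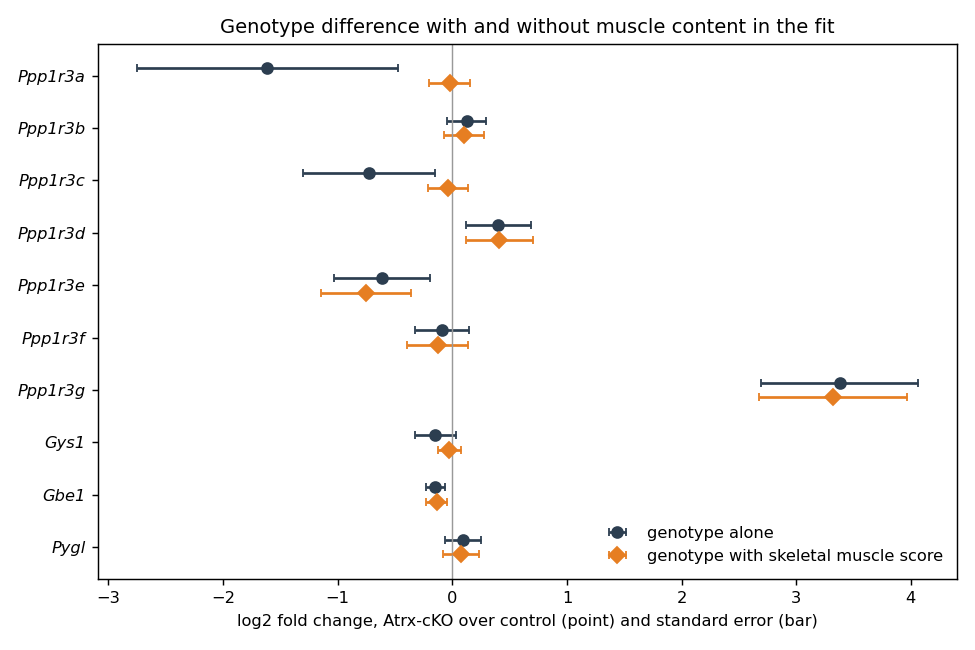
Genotype log2 fold change with its SE (x axis, Atrx-cKO over control, n = 3 each) for each member (y axis) with genotype alone and with the muscle score added to the fit. With the score, *Ppp1r3a* goes from -1.61 to -0.02 and *Ppp1r3c* from -0.73 to -0.04, while *Ppp1r3g*, chosen for its difference, goes from 3.38 to 3.32.

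Over all 6 libraries, the members differed in how they followed the skeletal muscle score. With genotype in the fit, *Ppp1r3a* and *Ppp1r3c* were called with a positive slope on the muscle score and 0 members with a negative slope, while 0.858% of the 20636 tested genes were called positive and 0% negative. DESeq2 called the same 2 members positive and 0 negative, with 1.41% and 0.102% of its genes called. *Gys1* had a slope of 0.25 (SE 0.06, edgeR adjusted p = 0.205) and did not pass. Beside *Ppp1r3g*, described above, the slopes of the other 6 lay between -0.36 for *Ppp1r3e* and 0.07 for *Ppp1r3d*, with adjusted p of at least 0.959.

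The calls rest on control replicate 3. Without it 0 members were called, with the slope of *Ppp1r3a* at 1.74 (edgeR adjusted p = 0.172) and that of *Ppp1r3c* 0.61 (adjusted p = 0.41). Only 11 of all 21343 tested genes were called in that fit, so 0 members says little about these genes. There *Ppp1r3d* had a slope of 0.72 (edgeR adjusted p = 0.185), steeper than that of *Ppp1r3c*. The remaining members lay between -0.36 for *Ppp1r3e* and 0.31 for *Gys1*. Without control replicate 2, *Ppp1r3c* had an adjusted p of 0.0562. A score from slow-fiber genes alone gave 0 called members, and the share of all genes called with it is not given here.

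Simple correlations with the score over the 6 libraries had the same 3 members in the lead by Pearson r. The genes were chosen with earlier results known, and the p-values given with each r and rho below are not adjusted. Exact permutation p with Benjamini-Hochberg adjustment over these 10 relations was 0.0139, 0.0417 and 0.0509 for r of *Ppp1r3a*, *Ppp1r3c* and *Gys1*. It was 0.0278, 0.438 and 0.438 for their rho, so *Gys1* was not under 0.05 by either and *Ppp1r3c* only by r. For *Ppp1r3a*, Pearson r was 0.995 and Spearman rho 1 (exact permutation p = 0.00139 and 0.00278). For *Ppp1r3c*, r was 0.974 and rho 0.771 (exact permutation p = 0.00833 and 0.103). For *Gys1*, r was 0.926 and rho 0.657 (exact permutation p = 0.0153 and 0.175). Without control replicate 3 and Atrx-cKO replicate 1, the libraries farthest from the median score, r was 0.930, 0.729 and 0.259 for these 3 genes, so the relation of *Gys1* rests on those libraries. These genes no longer led over the 4 libraries left. There r was 0.936 for *Ppp1r3d*, 0.744 for *Pygl*, 0.012 for *Ppp1r3e* and -0.12 for *Gbe1*. It was -0.48 for *Ppp1r3g*, -0.51 for *Ppp1r3b* and -0.81 for *Ppp1r3f*. Over all 6 libraries and beside *Ppp1r3g*, the other 6 members had r between -0.414 and 0.345, with exact permutation p of at least 0.411. By rank, *Ppp1r3e* had a rho of -0.657 (exact permutation p = 0.175), as large in size as that of *Gys1* but negative.

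**Figure D4:**
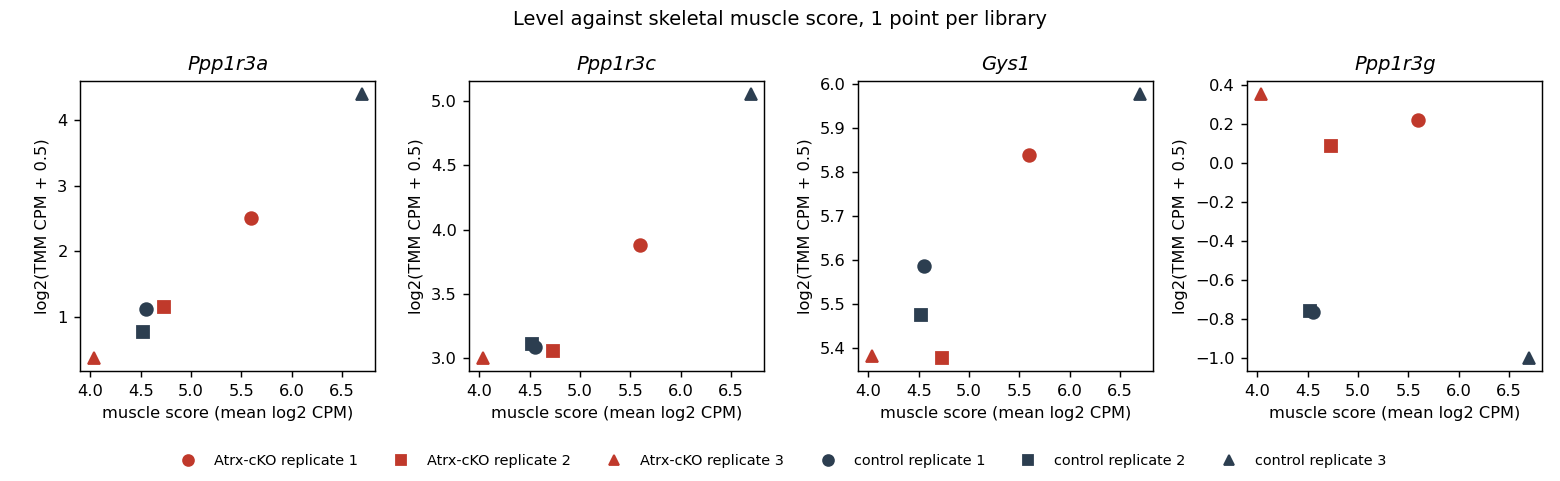
Level as log2(CPM + 0.5) (y axis) against the skeletal muscle score, the mean log2(CPM + 0.5) of 30 muscle genes (x axis), with 1 point per library. *Ppp1r3a* rises along the whole range of the score (r = 0.995), and *Ppp1r3c* and *Gys1* stand out mainly in the libraries at 5.60 and 6.70. *Ppp1r3g* divides by genotype, with control replicates 1 and 2 within the Atrx-cKO range of scores (4.03 to 5.60) and control replicate 3 above it (6.70).

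Per length of exon, as RPKM (CPM divided by the exon length in kilobases), the members covered a wide range. *Pygl* was highest at 19.3 RPKM (14.7 to 22.9 over the 6 libraries), followed by *Gys1* at 10.2 (8.57 to 13.05). *Gbe1* (4.92), *Ppp1r3b* (4.80), *Ppp1r3c* (4.80) and *Ppp1r3d* (3.96) came next with overlapping ranges. *Ppp1r3e* (0.750), *Ppp1r3a* (0.747), *Ppp1r3f* (0.299) and *Ppp1r3g* (0.135) followed, and neighbors in this order also overlapped in range. The ranges did not overlap between *Pygl* and *Gys1*, between *Gys1* and *Gbe1* or between *Ppp1r3d* and *Ppp1r3e*. With the longest transcript as the length, *Pygl* was at 42.3 RPKM and *Gys1* at 13.3.

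The makeup of the targeting subunits can be read from the same scale. In each library *Ppp1r3b*, *Ppp1r3c* and *Ppp1r3d* made up most of the summed RPKM of the 7 subunits. *Ppp1r3b* was at 30.2%, 33.3% and 41.4% in Atrx-cKO and at 40.4%, 34.4% and 16.9% in control. *Ppp1r3c* was at 27.2%, 23.4% and 22.4% in Atrx-cKO and at 21.6%, 22.8% and 53.8% in control, so it was the leading subunit in control replicate 3 alone. *Ppp1r3d* was at 33.8%, 32.4% and 24.5% in Atrx-cKO and at 29.5%, 27.2% and 11.8% in control, and led in Atrx-cKO replicate 1. *Ppp1r3a* ran from 0.927% to 13.3%, with its top value in control replicate 3. *Ppp1r3g* made up 1.28%, 1.70% and 2.34% in Atrx-cKO and 0.241%, 0.256% and 0% in control, a small part of the subunit RNA in both groups.

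Of the 32 other genes of glycogen metabolism, a list chosen with earlier results of these data known, 29 could be tested in edgeR. There 0 passed the genotype test, where 0.0145% of all tested genes were called higher and 0% lower. At an unadjusted edgeR p under 0.05 there were 0, where 3.64% of all tested genes had one. DESeq2 also called 0, where it called 0.0975% of its genes, but it gave no p for *Pygm*. Of the 29, 11 had a positive and 18 a negative log2 fold change in edgeR, with a median of -0.05. *Gys2*, the liver glycogen synthase, was too low to be tested and made up at most 0.616% of the glycogen synthase RPKM in any library, the rest being *Gys1*. *Gyg*, the glycogenin on which a particle starts, had a log2 fold change of 0.15 (SE 0.21, edgeR adjusted p = 0.992).

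The catalytic subunits of PP1, to which every targeting subunit binds, differed little between libraries. *Ppp1ca* had a log2 fold change of 0.05 (SE 0.09), *Ppp1cb* of 0.02 (SE 0.08) and *Ppp1cc* of 0.03 (SE 0.07), each with an edgeR adjusted p of at least 0.994. *Ppp1ca* made up 59.6% to 61.8% of their summed RPKM in all 6 libraries.

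Several of these genes followed the muscle score. A positive slope was called for 4 of the 29, where 0.858% of all tested genes were called, and a negative slope for 0. They were *Pygm*, the muscle phosphorylase (1.40, SE 0.13, edgeR adjusted p = 0.004), *Phkg1*, the muscle catalytic subunit of phosphorylase kinase (1.36, SE 0.10, adjusted p = 0.00205), *Pgm1*, a phosphoglucomutase (0.92, SE 0.13, adjusted p = 0.0258), and *Ugp2*, which makes UDP-glucose (0.30, SE 0.04, adjusted p = 0.03). DESeq2 called 8, where it called 1.41% of all genes, among them *Phka1*, which encodes a regulatory subunit of phosphorylase kinase, *Stbd1*, which encodes a glycogen-binding protein, and *Slc2a4*, a glucose transporter gene. Without control replicate 3, 0 were called in edgeR, and without Atrx-cKO replicate 2, control replicate 1 or control replicate 2 there were 2. The median slope was 0.11 over the list and 0.00 over all tested genes.

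The phosphorylases also differed from each other in this, within 1 enzyme. *Pygm* was at 122, 64.8 and 46.2 CPM in Atrx-cKO and at 47.4, 54.9 and 539 CPM in control. By RPKM, *Pygl* made up 32.1%, 38.1% and 40.2% of the 3 phosphorylases in Atrx-cKO and 44.5%, 41.8% and 7.61% in control, and *Pygm* made up 53.0%, 39.1% and 33.4% in Atrx-cKO and 30.0%, 36.4% and 87.0% in control. *Pygb*, the brain form, held a log2 fold change of 0.03 (SE 0.09) and a slope of -0.05 (SE 0.06).

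**Figure D5:**
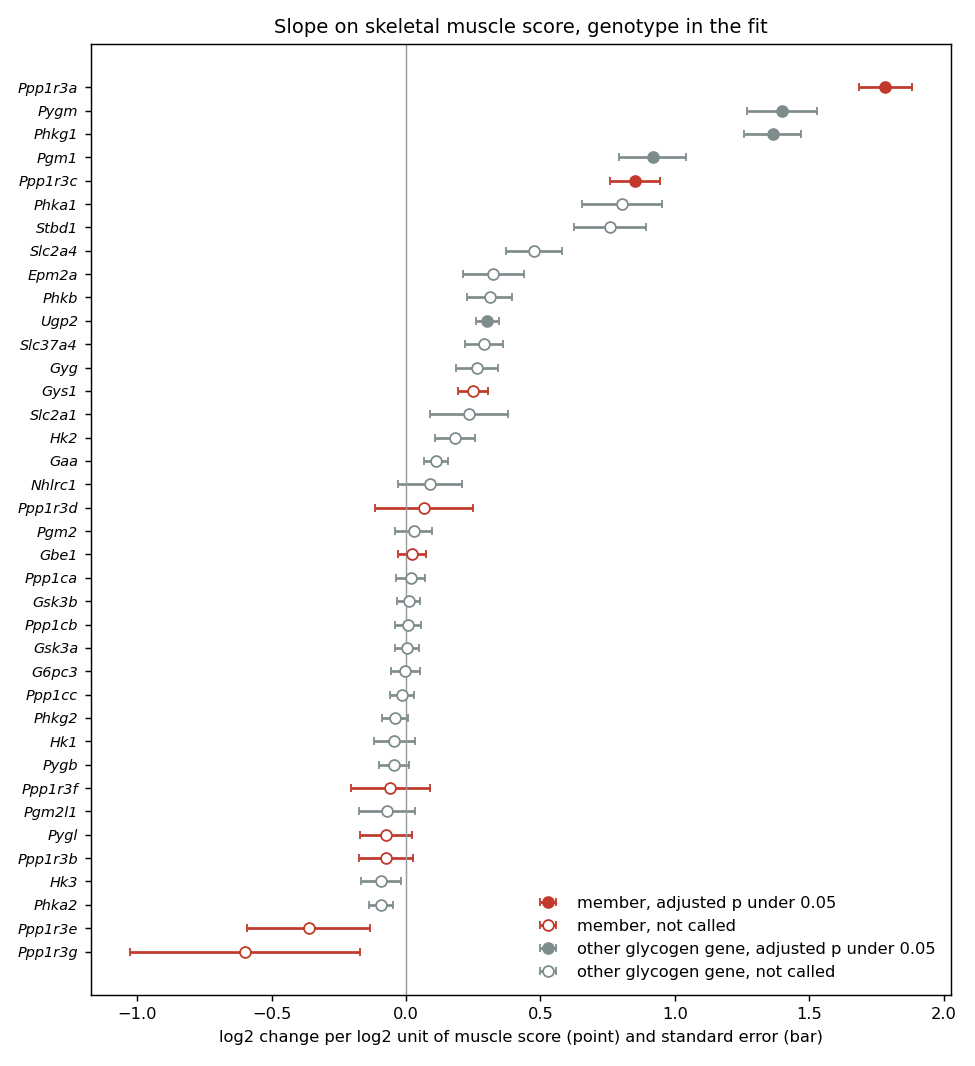
Slope on the skeletal muscle score (x axis, log2 change per unit of score with SE, genotype in the fit) for the 10 members and other tested genes of glycogen metabolism, in order of slope, with filled points for an edgeR adjusted p under 0.05. *Ppp1r3a* (1.78) leads, followed by *Pygm* (1.40) and *Phkg1* (1.36), and *Ppp1r3g* (-0.60) has a wide error.

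The genes whose levels were most like those of *Ppp1r3g* over the 6 libraries, by Pearson r of log2(CPM + 0.5), were *Gm47792* (r = 0.995), *Nemf* (0.992), *Gm16105* (0.991), *Rbm26* (0.988) and *Pdcd2l* (0.985). Of 20635 genes compared, 46 had r above 0.95. *Gm47792*, like *Ppp1r3g*, was low, at means of 0.360 CPM in Atrx-cKO and 0.0497 CPM in control, whereas *Nemf* was at 70.0 and 64.5 CPM. For *Ppp1r3a* the closest were the muscle genes *Des* (0.998) and *Acta1* (0.996), with *Tstd2* (0.996), *Aldoa* (0.996) and *Fam57b* (0.996), and 234 genes had r above 0.95. *Des* and *Acta1* are in the muscle score. The libraries, their depth and their muscle content are shared by all these points, and the values are given as a description. The profile of *Ppp1r3g* also holds the genotype difference that chose it, so its list favors genes that differ by genotype.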

How the data were processed

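RNA from 6 mouse tibias was sequenced by the study from strand-specific, polyadenylated libraries. The authors deposited raw read counts per gene for each library, with no normalization, and the submitters' processing notes name GRCm38 and DESeq2. The aligner, the counting program and its strand setting are not given in the sources used here. Entries for reads on no gene feature (51.6% to 52.4% of each library) and other summary entries were kept out of library sizes. Genes were named with GENCODE M21, which matched 55141 of 55401 identifiers, and exon lengths for RPKM came from the same annotation.

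Counts were fitted in R 4.3.3 with edgeR 4.0.16 (TMM, filterByExpr defaults, quasi-likelihood test, Benjamini-Hochberg adjustment over all 20636 tested genes) and, as an alternative, DESeq2 1.42.0. Genes were called at an adjusted p under 0.05, for genotype together with a change of 1 log2 unit or more. The muscle slope was tested in a fit with genotype and the muscle score (30 marker genes, 0.5 CPM added before log2). Both fits were run on simulated data with a lower dispersion than that estimated here, so this run did not check them at the spread of these libraries. Correlations used two-sided exact permutation tests over 720 pairings. Promoter sequences came from RefSeq.

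The members, lists and marker genes were chosen with earlier results of these data known. Named genes were the members, the genes within 100 kb of *Ppp1r3g*, partner genes (*Gyg*, *Gys2*, *Pygm*, *Pygb*, *Ppp1ca*, *Ppp1cb*, *Ppp1cc*), each list gene called in any fit, the 5 genes most like *Ppp1r3g* and *Ppp1r3a*, and marker genes. *Ruvbl2*, *Gm36995*, *Flicr* and *Foxp3* were named because they overlap a member. The genes of glucose entry and release in the closing section were named after their values were seen. So was *Gsk3b*, which was named for its groups that did not overlap. Alternatives were other scalings, filters, scores, a replicate block and leaving out each library. No source states that each library came from a separate mouse, so p-values measure the spread between these samples. The authors' own comparisons were not used. Some single-gene results of the list are not reported here.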

Additional observations from a re-analysis of the deposited data

How the results depend on the processing

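In the genotype contrast, 0 of the 9 members other than *Ppp1r3g* and 0 of the 32 other glycogen genes were called under all 15 alternatives. Few genes of any kind were called when 1 library was left out, from 0 of 21228 without Atrx-cKO replicate 1 to 5 of 21343 without control replicate 3. *Ppp1r3g* was chosen for its difference and its groups did not overlap, so its direction under these alternatives was set in advance and is no support. Its values are given as a description, and a minimum of 10 counts in every library removed it. Leaving out 1 library at a time gave log2 fold changes of 2.87 to 3.78 for *Ppp1r3g*, -2.65 to 0.84 for *Ppp1r3a*, -0.0031 to 0.26 for *Ppp1r3b*, -1.10 to 0.29 for *Ppp1r3c*, -0.87 to 0.030 for *Ppp1r3e*, -0.26 to 0.025 for *Ppp1r3f*, -0.33 to 0.018 for *Gys1*, -0.056 to 0.21 for *Pygl*, -0.11 to 0.29 for *Gyg*, -1.97 to 0.60 for *Pygm*, -0.027 to 0.12 for *Pygb*, -0.0047 to 0.083 for *Ppp1ca*, -0.015 to 0.043 for *Ppp1cb*, -0.0059 to 0.054 for *Ppp1cc*, -1.92 to 0.49 for *Phkg1*, -1.28 to 0.35 for *Pgm1*, -0.31 to 0.069 for *Ugp2*, -1.20 to 0.31 for *Phka1* and -1.28 to 0.0084 for *Stbd1*. With the muscle score in the fit, *Pygm* turned to 0.026.

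The muscle slope calls depended on control replicate 3, and the count of members called positive ran from 0 to 2 over the fits without 1 library and that of other glycogen genes from 0 to 7. Calls over all tested genes moved too, from 11 of 21343 without control replicate 3 to 182 of 21199 without Atrx-cKO replicate 3. Over those fits the slopes were -0.19 to 0.14 for *Ppp1r3b*, -0.17 to 0.72 for *Ppp1r3d*, -0.35 to 0.016 for *Ppp1r3f*, -0.025 to 0.033 for *Gbe1*, -0.18 to 0.26 for *Pygl*, -0.014 to 0.094 for *Ppp1ca*, -0.017 to 0.017 for *Ppp1cb* and -0.036 to 0.028 for *Ppp1cc*. *Ppp1r3a* and *Ppp1r3c* stayed called with RLE size factors, no filter, DESeq2, the summed score and the score without genotype. The list count was 8 with no filter, 8 in DESeq2, 7 with the score as summed CPM and 7 without genotype. Of all genes, DESeq2 called 1.41% positive. Such shares are not given here for the other settings, including the slow-fiber score and the replicate block. A score from slow-fiber genes called 0 members and 0 list genes and gave slopes of 0.58 for *Ppp1r3b*, -0.0021 for *Gbe1*, 0.60 for *Pygl* and 0.087 for *Ppp1cc*. *Ppp1r3d* was at -0.013 with the summed score, and *Ppp1cb* at -0.0056 with no filter and -0.00029 in DESeq2. Without the 2 libraries farthest from the median score, r was 0.936 for *Ppp1r3d*, 0.012 for *Ppp1r3e*, -0.12 for *Gbe1* and 0.744 for *Pygl*. Apart from what leaving out a library or refiltering does by construction, the cause of these changes was not tested.

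Same-numbered libraries did not deviate together (correlations -0.00241, 0.107 and -0.0981), so the numbers do not pair them. With a replicate block, 0 of the 9 members and 0 list genes were called for genotype, *Lyrm4* had 1.83 with an edgeR adjusted p of 0.126, and 2 members and 5 list genes were called for a positive slope, with *Ppp1r3a* at 1.74. This slope fit was added after seeing the data. By length, the longest transcript moved *Ppp1r3b* to 6.81, *Gys1* to 13.3, *Gbe1* to 7.06 and *Pygl* to 42.3 RPKM. Depth limits *Ppp1r3g*, with at most 6 counts in a control library.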

Other observations

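Genes of glucose entry and release, which were in the list of other glycogen genes, are described here in more detail. The hexokinases, which trap glucose as glucose 6-phosphate, were led by *Hk3* (35.5 RPKM as the mean of 6 libraries) and *Hk1* (16.7), with *Hk2* at 7.03 RPKM. None of the 3 passed the genotype test, with log2 fold changes of 0.08 (SE 0.13), 0.00 (SE 0.12) and -0.18 (SE 0.16) and edgeR adjusted p of at least 0.992. *G6pc*, the liver glucose 6-phosphatase, had 1 count in all libraries together. The broadly expressed *G6pc3* was steady at 27.5 to 31.4 CPM.

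The insulin-responsive glucose transporter gene *Slc2a4* was at 15.4, 8.88 and 11.6 CPM in Atrx-cKO and at 14.3, 15.2 and 33.0 CPM in control, overlapping groups with a log2 fold change of -0.80 (SE 0.36, edgeR adjusted p = 0.992). Its slope on the muscle score was 0.48 (edgeR adjusted p = 0.186, DESeq2 adjusted p = 0.00662). *Slc2a1*, the transporter GLUT1, was at 23.9, 13.7 and 10.8 CPM in Atrx-cKO and at 13.3, 14.4 and 13.7 CPM in control, with Atrx-cKO replicate 1 alone high. *Gsk3b*, a kinase that phosphorylates glycogen synthase, was the 1 tested gene of the 29 with groups that did not overlap, where 8.36% of all tested genes had such groups, at 99.9, 97.1 and 102 CPM in Atrx-cKO and 96.6, 93.8 and 95.6 CPM in control, with a log2 fold change of 0.07 (SE 0.07, edgeR adjusted p = 0.992).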
